A study of Danio rerio with 2 samples.

Results

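RARaa, a zebrafish retinoic acid receptor, was mapped by chromatin immunoprecipitation and sequencing (ChIP-seq), and the peaks described here lay on the 5 chromosomes that carry the hoxa, hoxc and hoxd gene clusters: chromosome 9 (hoxda), 11 (hoxcb), 16 (hoxab), 19 (hoxaa) and 23 (hoxca). Every line of the deposited peak list on these chromosomes was taken, and lines with the same borders were counted once as an interval. They gave 843 distinct intervals, or 853 peak lines, of the 4750 intervals in the whole list. This was 18.5% of the 4547 intervals on the 25 numbered chromosomes. Of these chromosomes, 18 hold no hox cluster and gave 3349 intervals, against which the 5 are set below. The hoxb chromosomes, 3 and 12, had 355 intervals that are outside both groups. The choice of chromosomes rested on the clusters and not on any value in the peak list, although earlier results of these data were known. Its basis was checked in the RefSeq annotation of a later assembly (GRCz12tu), where 34 of the 49 protein-coding hox genes lie on these chromosomes: 7 on chromosome 9, 4 on 11, 5 on 16, 7 on 19 and 11 on 23.

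Chromatin precipitated for RARaa was compared with input chromatin. Fertilized eggs were injected with mRNA coding for RARaa with a myc tag, so the tagged receptor was present beside the embryo's own, in any cell that held the mRNA, whichever tissue it belonged to. The embryos were labelled 10.5 hours post fertilization (hpf), the end of gastrulation, were given retinoic acid (RA) for 1 hour, and fixation was in 1.85% paraformaldehyde for 10 min. The labels place the RA treatment before collection, whereas the study's methods add RA at the labelled stage and collect after it, so by the methods the chromatin is 1 hour older than its label. Chromatin from many pooled embryos was precipitated with an antibody against myc (1 ChIP library), and an aliquot kept before precipitation served as the input (1 library), so both libraries share the injection, the stage and the RA treatment. The ChIP library had 48809259 tags, of which 39480982 remained after duplicates were removed, and the input had 54439579 and 51506879 tags. There were no replicate libraries and no library without RA, so no test between conditions was made. Intervals in brackets are 95% intervals that cover counting error only for pileups and fold enrichments, and that treat peak intervals as independent draws for medians, shares and densities.

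RA is a small lipid signal that enters the nucleus and binds RAR proteins, which sit on DNA as heterodimers with retinoid X receptors (RXR) at RA response elements. Hox genes encode homeodomain transcription factors that give cells their position along the head to tail axis, and the genes at the 3′ end of each cluster, with low numbers, are the ones known for an early response to RA. The genome duplication in teleost fish left paired copies of most clusters, so that chromosomes 19 and 16 both carry hoxa genes and chromosomes 23 and 11 both carry hoxc genes.

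For each interval the list gives the pileup, a count of the ChIP tags over the summit once each tag is extended, and the fold enrichment, which is the ratio of the pileup to the local background from the input library after 1 was added to both. The background itself was recovered from these values. Its genome-wide level, computed from the ChIP tags kept and the genome size, was 5.64 tags, and no interval of the list had a lower background. A background of 5.64 is therefore this lowest level and not an input count at the site. Gene names were taken from the annotation made in the study, which was at hand for intervals near RA-regulated genes or in conserved non-coding elements. It named a gene for 65 of the 843 intervals (355 of 4750 in the whole list), and every named interval had a −log10 q-value of at least 5.12. A value above 5, called strong here, was reached by 59.6% of the whole list. Named intervals were therefore strong by selection, and the 778 intervals without a name are not intervals without a gene nearby. The annotation gave 42 gene names, of which 34 were in the RefSeq table and all of these 34 were on the same chromosome there. By the study's rule an interval took the name of the closest gene, which could lie far from it. The paper cautions that this rule may link some sites to the wrong gene.

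The hox regions described here ran between the outermost intervals named for hox genes or mir-10b, as Zv9 gene positions were not used. They may therefore differ from the true extent of the clusters. The region of the hoxaa cluster on chromosome 19 held 7 intervals within 63.5 kb (Zv9 build, 19224753 to 19288279), all of them named for hoxa1a, hoxa3a or hoxa5a. These are anterior and central members of the cluster. The highest lay near hoxa3a (19235571 to 19235964), where 152 ChIP tags [129 to 178] stood over an input background of 7.54 tags, a 17.9-fold enrichment [15.2 to 21.0]. Another hoxa3a interval (19229595 to 19230065) had 141 tags over 7.82, a 16.1-fold enrichment [13.6 to 18.97]. These 2 counting intervals overlapped, and both sites stood above the other 2 hoxa3a intervals, which had 65 tags over 7.86 (7.45-fold [5.77 to 9.46]) and 47 tags over 9.35 (4.64-fold [3.43 to 6.13]). Among the 167 intervals of chromosome 19 they ranked 4 and 5 by fold enrichment.

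On either side of hoxa3a the enrichment was lower at hoxa5a and mixed at hoxa1a. The hoxa5a interval, in its promoter, had 68 ChIP tags over 10.1 background tags, or 6.21-fold [4.84 to 7.84]. Hoxa1a, at the 3′ end of the cluster, had an interval with 59 tags over 7.67 (6.92-fold [5.30 to 8.90]). A further interval assigned to hoxa1a (19287945 to 19288279) lay in an exon of another gene and had 95 tags over 6.52, or 12.8-fold [10.4 to 15.6]. So 3 of the 7 intervals reached 10-fold. Of all intervals in the list 6.76% did, but as the 7 were strong by selection, the nearer shares are 11.3% of all strong intervals and 24.6% of the 65 named intervals on the 5 chromosomes, and nothing is read from the count. No interval was called in the 188 kb before the hoxa5a interval. In the RefSeq gene order hoxa9a, hoxa11a and hoxa13a, the posterior genes, lie towards that side, although their Zv9 positions were not analysed here. A stretch of this length was common, as 45.8% of the 166 gaps between successive intervals on chromosome 19 were at least as long.

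**Figure D1:**
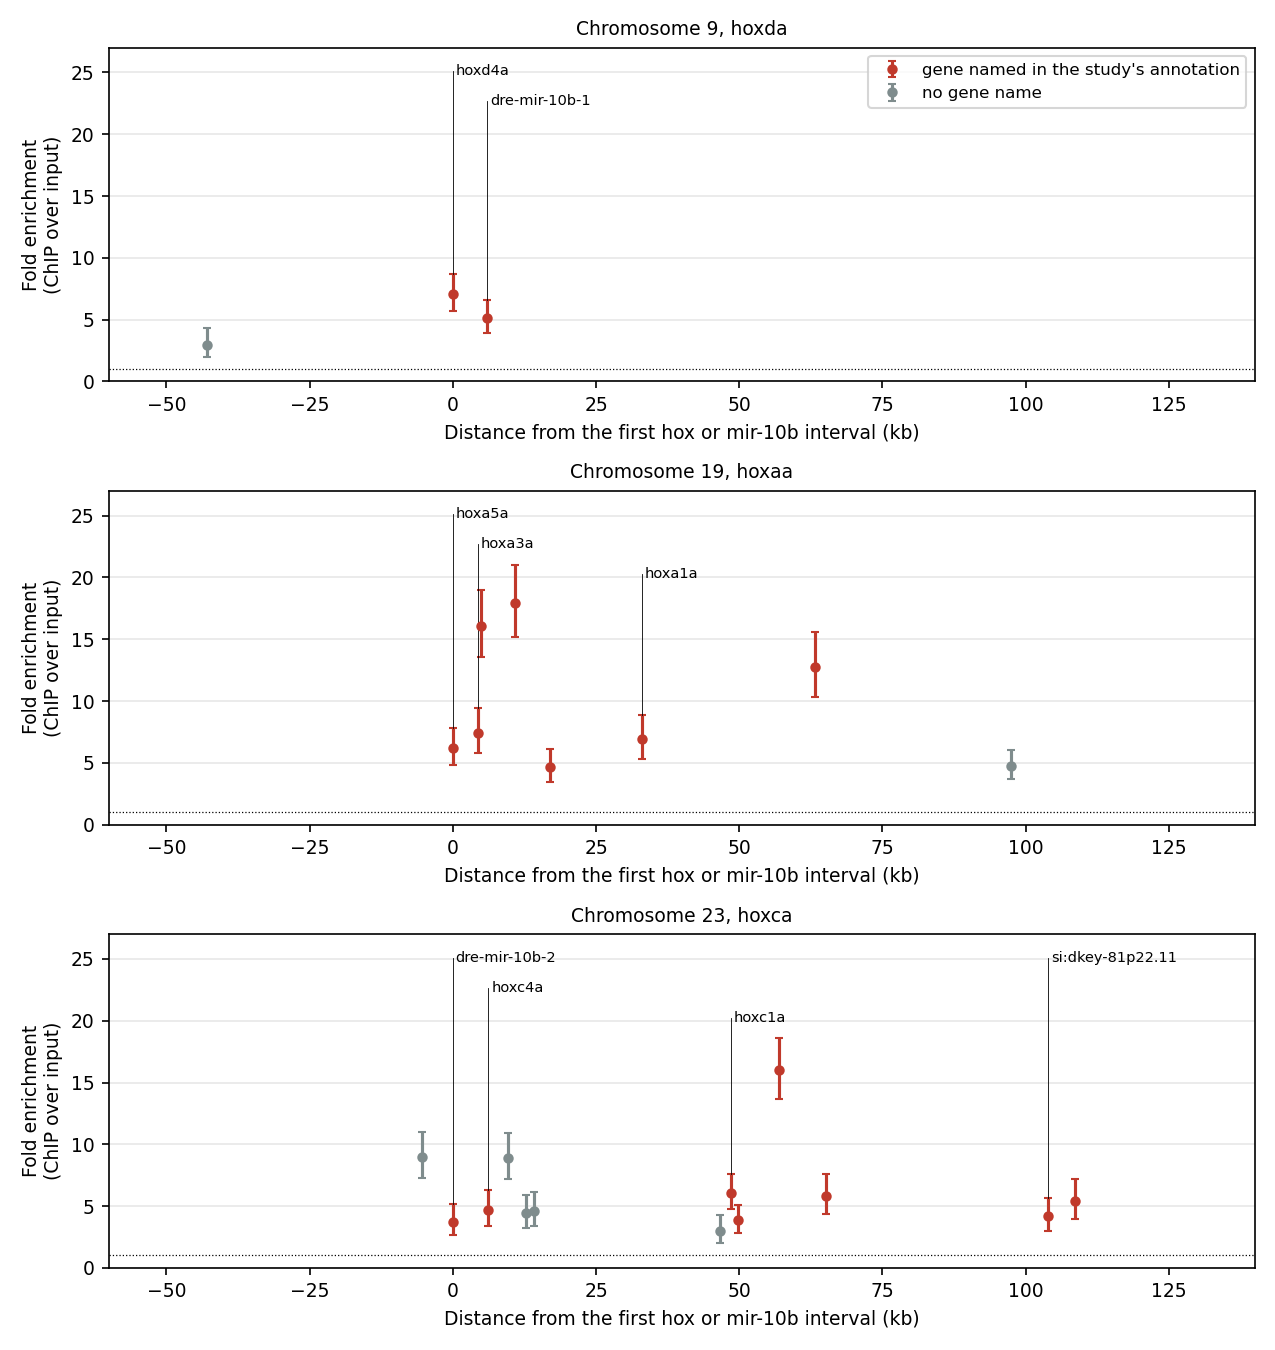
Fold enrichment of each interval (vertical axis) against its distance in kb from the first hox or mir-10b interval (horizontal axis) at the hoxda, hoxaa and hoxca clusters. Bars are 95% counting intervals, the dotted line is a fold of 1, and each vertical line joins a gene name to the first interval named for it. At hoxa3a 2 intervals and at hoxc1a 1 stand at 15.98-fold or more, while most of the others lie under 10-fold.

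At the hoxca cluster on chromosome 23, 10 intervals spanned 65.3 kb (36180031 to 36245365), 6 of them named and 4 without a name. They fell into 2 groups. The first began with mir-10b-2, a microRNA gene that sits beside hox4 genes, with 36 ChIP tags over 8.89 background tags (3.74-fold [2.65 to 5.14]), and hoxc4a, with 41 over 7.97 (4.68-fold [3.39 to 6.31]). Of the 3 unnamed intervals that followed hoxc4a, the nearest (36189549 to 36190090) was the highest, with 90 tags over 9.20 (8.92-fold [7.19 to 10.9]), and the other 2 stood at 4.42-fold and 4.61-fold. The second group lay around hoxc1a, the 3′ gene of this cluster.

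Hoxc1a carried the peak of the region, at 36236839 to 36237232, where 162 ChIP tags [138 to 189] covered the summit over a background of 9.20, a 15.98-fold enrichment [13.6 to 18.6]. It ranked 3 among the 164 intervals of chromosome 23. In the hoxc1a promoter the 2 intervals were lower, with 70 tags over 10.7 (6.05-fold [4.74 to 7.62]) and 47 over 11.5 (3.84-fold [2.84 to 5.08]). The last hoxc1a interval, in an intron of another gene, had 49 tags over 7.62 (5.80-fold [4.32 to 7.63]). The only interval of the region with a −log10 q-value of 5 or less was an unnamed one beside the promoter, with 26 tags and a fold of 2.96 [1.97 to 4.28].

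On the mir-10b-2 side of the region, 1 more unnamed interval stood 5.09 kb away with 95 tags over 9.66 (9.01-fold [7.31 to 10.99]). Beyond it no interval was called for 979 kb, and 6.13% of the 163 gaps on chromosome 23 were at least that long. The RefSeq order places hoxc5a, hoxc6a, hoxc8a and hoxc9a on this side of mir-10b-2. Whether sequence tags could be placed across the stretch was not tested. On the hoxc1a side, 2 intervals named for si:dkey-81p22.11 began 38.5 kb from the region, at 4.17-fold and 5.39-fold.

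The region of the hoxda cluster on chromosome 9 had 2 intervals 6.23 kb apart from end to end (1938820 to 1945052). The hoxd4a interval had 87 ChIP tags [69.7 to 107] over 11.5 background tags, or 7.04-fold [5.66 to 8.67]. In the promoter of mir-10b-1, 59 tags stood over 10.7, or 5.11-fold [3.91 to 6.57]. Both counting intervals overlapped, so the order of the pair was not resolved. Past mir-10b-1, in the direction of hoxd9a to hoxd13a in the RefSeq order, the next interval lay 251 kb away, and 46.5% of the 157 gaps on this chromosome were that long or longer. Hoxd3a, next to hoxd4a on the other side, gave its name to no interval.

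No interval on chromosomes 11 or 16 was named for a hox gene, although RefSeq places hoxc6b, hoxc11b, hoxc12b and hoxc13b on chromosome 11 and hoxa2b, hoxa9b, hoxa10b, hoxa11b and hoxa13b on chromosome 16. As names exist for a small part of the intervals and the Zv9 positions of these genes were not used here, intervals at the hoxcb and hoxab clusters could not be told from the rest.

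The 19 hox intervals of chromosomes 9, 19 and 23 had a median fold enrichment of 6.05 [4.61 to 8.92], and the other 470 intervals on the same chromosomes a median of 3.73 [3.58 to 3.88]. Since 15 of the 19 were chosen among intervals with a −log10 q-value over 5, only intervals above that threshold can be set beside each other: the median was then 6.13-fold [4.64 to 8.92] over 18 hox intervals and 4.99-fold [4.66 to 5.32] over 272 others, and the 2 ranges overlapped. The input background was also higher at the hox intervals, with a median of 8.89 tags and a range of 6.52 to 11.5, against a median of 6.59 tags over the 470 others. A higher background lowers the fold at a given pileup. Above the same threshold the median ChIP pileup was 62 tags over the 18 hox intervals and 40 tags over the 272 others. Their median backgrounds were 9.04 and 6.90 tags. More tags are needed to pass the threshold at a higher background, so no difference is read from these pileups. Of the 19, 17 had a neighbour within 10 kb, and of the 470, 63 had one. The hox regions were marked out by runs of named intervals, so this count is a description and was not tested.

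Of the genes that handle RA itself, the dhrs3 pair had long runs of intervals. Dhrs3 enzymes reduce retinaldehyde to retinol and so draw substrate away from RA synthesis. Of the 12 genes listed for RA metabolism and transport, 4 lie on these chromosomes in RefSeq (dhrs3b on 11, dhrs3a on 23, crabp2a on 16 and crabp2b on 19), and intervals were named for the 2 dhrs3 genes only. There were 11 such intervals, with a median of 8.53-fold, and 5 reached 10-fold, as did 16 of the 65 named intervals (24.6%), the 11 included.

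Dhrs3b on chromosome 11 had 7 intervals over 58.0 kb, with no other interval among them or within 50 kb of them. The highest was at 29437157 to 29437665, with 184 ChIP tags [158 to 213] over a background of 7.67, or 21.3-fold [18.4 to 24.6], the third highest of the 189 intervals of this chromosome. The 2 intervals beside it, together with it within 7.66 kb, had 160 tags over 7.21 (19.6-fold [16.7 to 22.9]) and 108 tags over 8.43 (11.6-fold [9.50 to 13.9]). Nearer the gene start, 161 tags covered a summit with a background of 12.3, which gave 12.2-fold [10.4 to 14.2]. This site had about the same pileup as the 19.6-fold one, and its lower fold went with the higher input background. The remaining 3 intervals had 28 to 86 tags and folds of 3.37, 4.51 and 8.53.

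Dhrs3a on chromosome 23 had 4 intervals within 11.1 kb. The main one (21961472 to 21961819) had 112 ChIP tags [92.2 to 135] over 7.97 background tags, or 12.6-fold [10.4 to 15.1]. The other 3 had 30, 34 and 44 tags and folds of 3.58, 3.43 and 5.70, well under it. A further 4 intervals with no name followed within 50 kb, and the farthest had 155 tags over 9.81 (14.4-fold [12.3 to 16.9]), above the main dhrs3a interval in pileup. The 3 farthest lay within 4.75 kb at 9.04-fold, 11.8-fold and 14.4-fold. In the RefSeq order both dhrs3 genes have copies of the same genes nearby (ephb2a, lrrc38a and igsf21b at dhrs3a, ephb2b, lrrc38b and igsf21a at dhrs3b). At dhrs3b 4 of the 7 named intervals reached 10-fold and their median was 11.6-fold. At dhrs3a 1 of the 4 did, and the median was 4.64-fold. The named intervals spanned 58.0 kb at dhrs3b and 11.1 kb at dhrs3a, so these values do not compare the genes over like windows. The gene nearest to the 4 unnamed intervals was not analysed here.

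**Figure D2:**
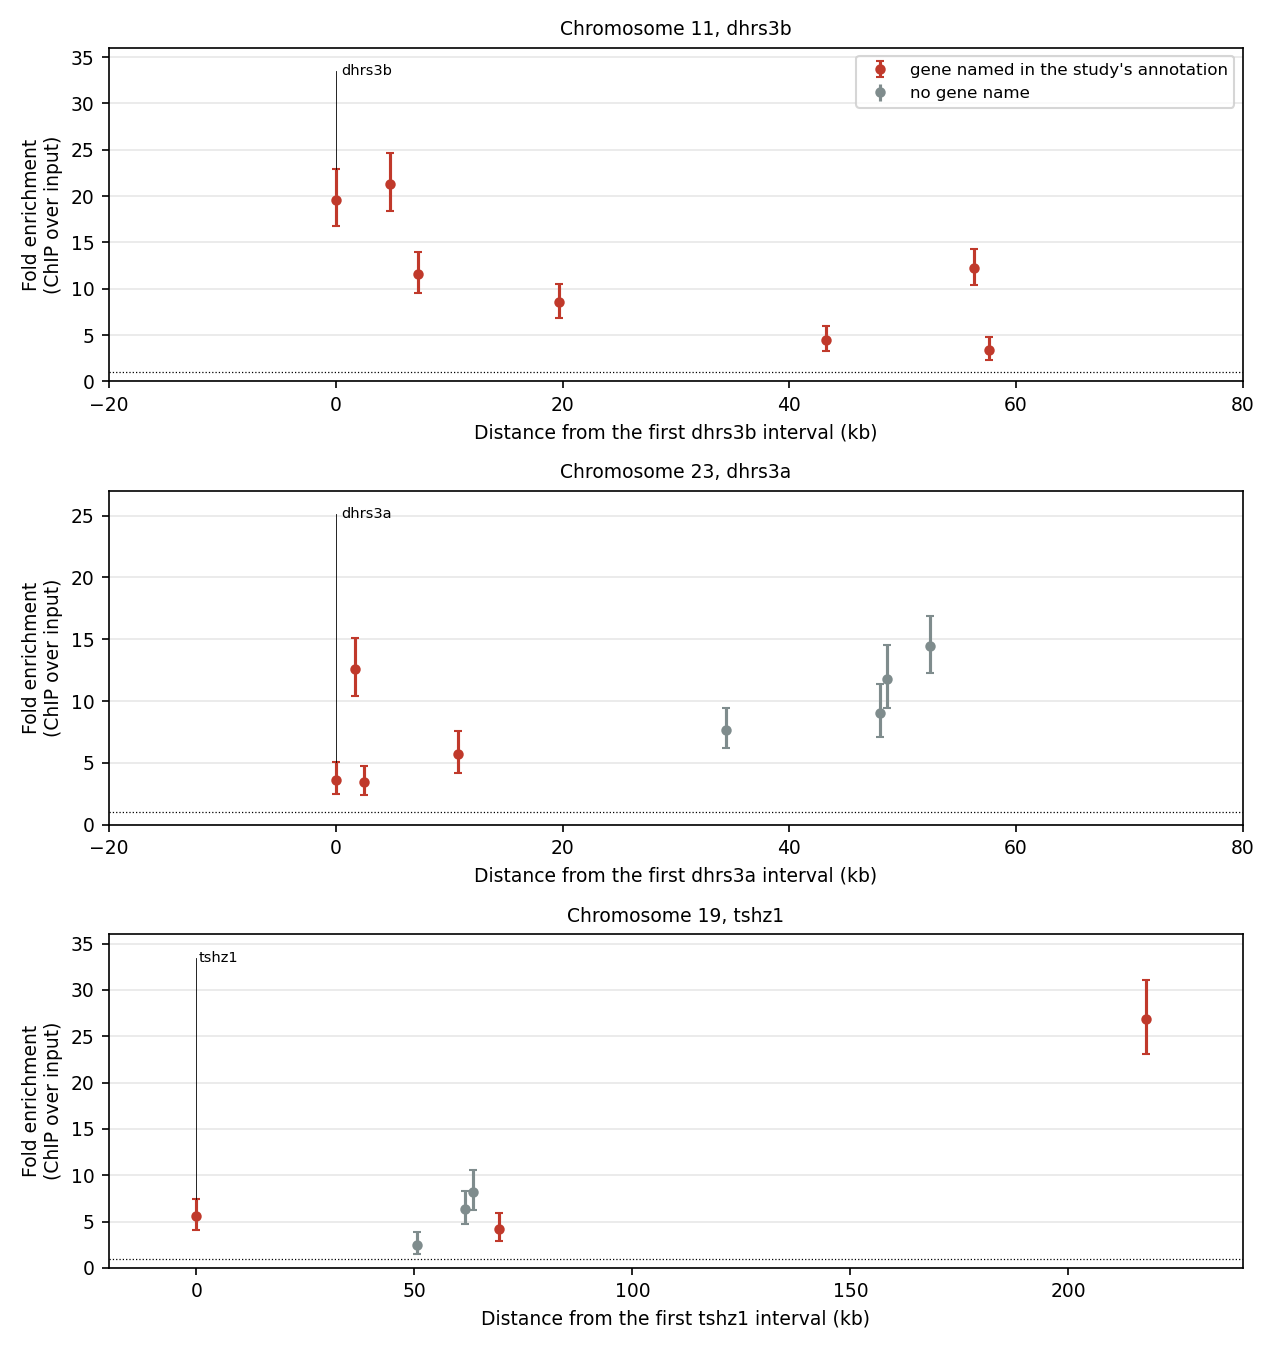
Fold enrichment of each interval (vertical axis) against distance in kb from the first interval named for dhrs3b, dhrs3a and tshz1 (horizontal axis, wider for tshz1). Bars are 95% counting intervals and the dotted line is a fold of 1. At dhrs3b the 2 highest intervals reach 19.6-fold and 21.3-fold, at dhrs3a unnamed intervals farther along reach 14.4-fold, and at tshz1 a single interval reaches 26.8-fold.

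Among the nuclear receptors and their partners, 7 of the 21 listed genes lie on these chromosomes in RefSeq (rarga, rargb, rxrba, rxrbb, nr2f5, nr2f6b and ncoa3), and 2 had a named interval. Both intervals passed 10-fold, against 24.6% of the 65 named intervals and 11.3% of all strong intervals in the peak list. These genes were listed with earlier results of these data known, and nothing is read from the count. The intergenic interval named for ncoa3, which encodes a coactivator of nuclear receptors, had 158 ChIP tags [134 to 185] over a background of 7.51 on chromosome 11, or 18.7-fold [15.9 to 21.8]. The 4 unnamed intervals within 50 kb of it had folds of 3.76 to 8.88. The intergenic interval named for nr2f5, an orphan receptor of the COUP-TF family, had 115 tags [94.9 to 138] over 6.13 on chromosome 16, or 16.3-fold [13.5 to 19.5], the second highest of the 165 intervals there. Its 4 unnamed neighbours within 50 kb had 2.55-fold to 7.55-fold. The receptor genes rarga, rargb, rxrba and rxrbb were not among the named genes.

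Transcription factors accounted for 12 named intervals at 10 genes, of 13 listed genes that lie on these chromosomes in RefSeq. This list was chosen with earlier results of these data known, and the listed genes without an interval were all gata genes. No rate is therefore read from this count. The highest was named for tshz1 on chromosome 19, which encodes a teashirt family zinc finger protein. It was intergenic and lay 149 kb from the nearest other interval. There 177 ChIP tags [152 to 205] stood over 5.64, the genome-wide level and lowest background, or 26.8-fold [23.02 to 31.0], the highest value on the chromosome. The other 2 tshz1 intervals had 42 tags (5.55-fold) and 30 tags (4.17-fold), and the 3 spanned 218 kb with 3 unnamed intervals between them. Sp5l, a zinc finger gene of the Sp family on chromosome 23, had 85 tags over 7.36 in its promoter, or 10.3-fold [8.24 to 12.7].

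Below 10-fold came etv5a, an ETS factor gene on chromosome 9 (58 tags, 8.36-fold), and foxg1b, a forkhead gene on chromosome 11 (72 tags, 7.74-fold). The intervals for zbtb46 (5.89-fold), mafgb (5.42-fold), pou3f2b (4.94-fold), olig2 (3.89-fold), sall3b (3.69-fold) and her9 (3.60-fold) had between 25 and 50 tags. The counting intervals of these 6 overlapped. The 31-tag interval named for olig2 had stronger unnamed neighbours on chromosome 9, with 85 tags (9.91-fold) at 5.18 kb and, at 46.6 kb, the 18.5-fold interval that was the highest of the chromosome. Gata1a, gata2a and gata5, also on these chromosomes in RefSeq, gave their names to no interval.

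The 9 intervals named for 6 genes of signalling and cell guidance had a median of 4.20-fold and none reached 10-fold. Of the 65 named intervals 24.6% did, and of all strong intervals in the list 11.3%. These genes were listed with earlier results of these data known, and nothing is read from the count. An intron of ptpn11b, which encodes a tyrosine phosphatase of receptor kinase signalling, had 58 tags (6.69-fold), and a second intronic interval of that gene had 30 tags (4.20-fold). The semaphorin gene sema3fb had 3 intronic intervals of 28 to 47 tags, the semaphorin receptor gene plxnb1a 1 of 38 tags (5.82-fold), and the bmp7a promoter 1 of 29 tags (3.80-fold). An intergenic interval named for the ephrin gene EFNA2 (2 of 2) had 34 tags (3.71-fold).

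Of the 16 named intervals outside these lists, 3 passed 10-fold. The share was 24.6% over all 65 named intervals and 11.3% over all strong intervals of the list, and nothing is read from the count. The interval assigned to sult6b1, a sulfotransferase gene that lies next to foxg1b in RefSeq, had 176 ChIP tags [151 to 204] over 6.90, or 22.4-fold [19.2 to 25.95]. PLEKHG1 on chromosome 23 had 90 tags over 5.64 (13.7-fold [11.05 to 16.8]), and the promoter of the splicing factor gene srsf6b on chromosome 11 had 87 tags over 6.50 (11.7-fold [9.42 to 14.4]). By location, the study placed 13 of the 15 hox and mir-10b intervals in a promoter or in the wider window around a gene start, and none in intergenic sequence. Of the 50 other named intervals, 22 were in those classes and 17 were intergenic. The intergenic ones included 5 dhrs3 intervals. Locations of single intervals were at hand for named intervals only. The study reports shares by location over its robust sites. Its classes were not matched to those used here, so no share stands beside these counts. No preference for a location is read from them.

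**Figure D3:**
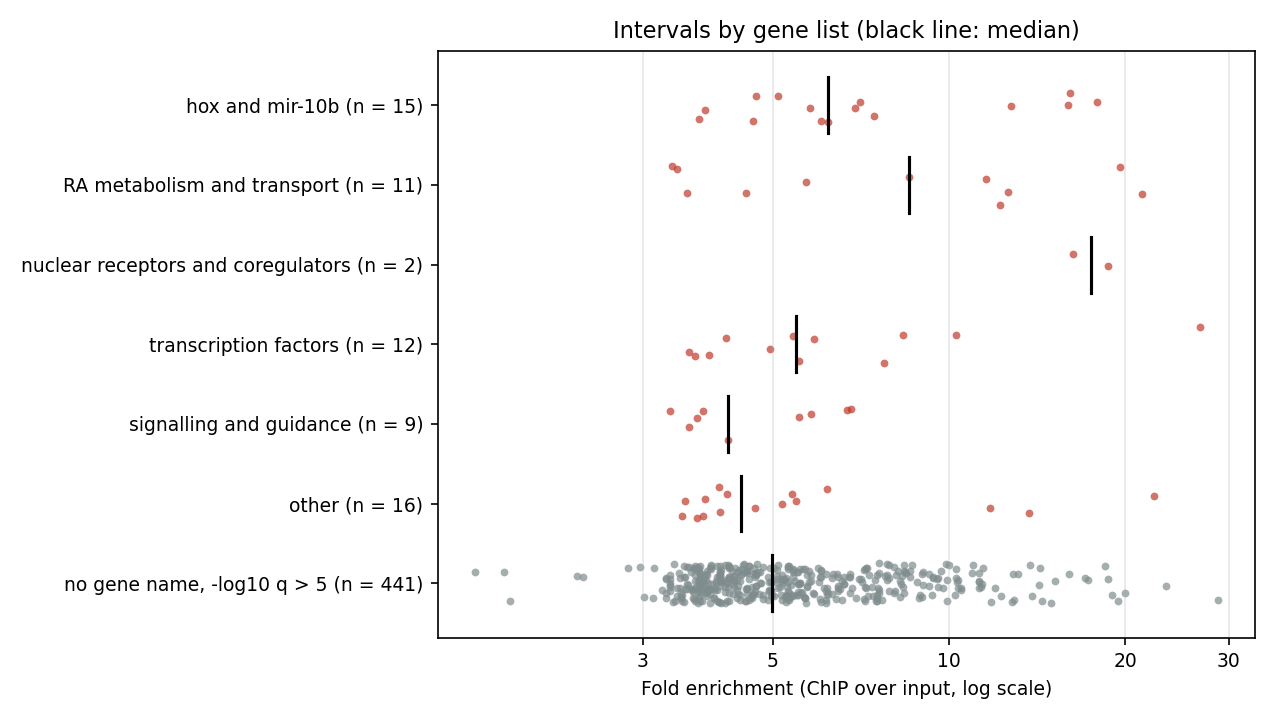
Fold enrichment (horizontal axis, log scale) of the 65 named intervals by gene list and of the 441 unnamed intervals with −log10 q above 5, each point 1 interval and each black line a median. The points are spread vertically for legibility, and the medians are 6.21-fold for hox and mir-10b, 8.53-fold for RA metabolism and 4.98-fold for intervals with no gene name. They are 17.5-fold for nuclear receptors and coregulators (2 intervals), 5.49-fold for transcription factors, 4.20-fold for signalling and guidance and 4.42-fold for other named genes.

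Over all 58 intervals at or above 10-fold, 16 had a gene name and 42 had none. The strongest included intervals of both kinds. The highest of the 843 was unnamed, on chromosome 11 (39089100 to 39089547), with 204 ChIP tags [177 to 234] over 6.13 background tags, or 28.7-fold [24.95 to 32.9]. On chromosome 16 the highest was also unnamed, with 156 tags over 5.69 (23.5-fold [19.96 to 27.4]). The next highest after tshz1 on chromosome 19 were 2 unnamed intervals at 18.98-fold and 18.7-fold, and on chromosome 23 the 2 highest, at 17.2-fold and 17.1-fold, were unnamed too. On chromosome 9 the top 3 had no name, at 18.5-fold, 13.9-fold and 12.8-fold. Among intervals with −log10 q above 5, those with a gene name had a median of 5.54-fold [4.67 to 6.21] (n = 65), and those without a name 4.98-fold [4.69 to 5.27] (n = 441).

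When intervals whose centres lay within 10 kb of each other were joined, the 5 chromosomes had 63 clusters, of which 14 held at least 3 intervals and 6 held at least 4. Of these 6 clusters, 4 were at the loci described above: hoxa5a to hoxa3a (5 intervals), dhrs3a (4), mir-10b-2 to hoxc4a (6) and hoxc1a (5). The other 2 were of another kind. On chromosome 11, 4 intervals within 2.80 kb (3003821 to 3006624) had 240 to 328 ChIP tags but also a background of 138 to 248 tags, and their folds were 1.32 to 1.78. On chromosome 16, 4 intervals within 5.24 kb (16635249 to 16640489) had 329 to 399 ChIP tags over 252 to 307 tags of background, and folds of 1.30 to 1.35. At most 400 tags can cover a summit when 1 tag is kept per position and strand. In the chromosome 16 cluster the 2 highest summits, with 399 tags each, were within 5% of that ceiling. Over whole chromosomes, 3 intervals of chromosome 16 and 1 of chromosome 9 were that near it, and none of chromosomes 11, 19 and 23. Duplicates were removed from the input as well, and the input was scaled by 0.767, so its background is limited too. Folds near the ceiling are therefore not read as a ChIP excess over input.

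**Figure D4:**
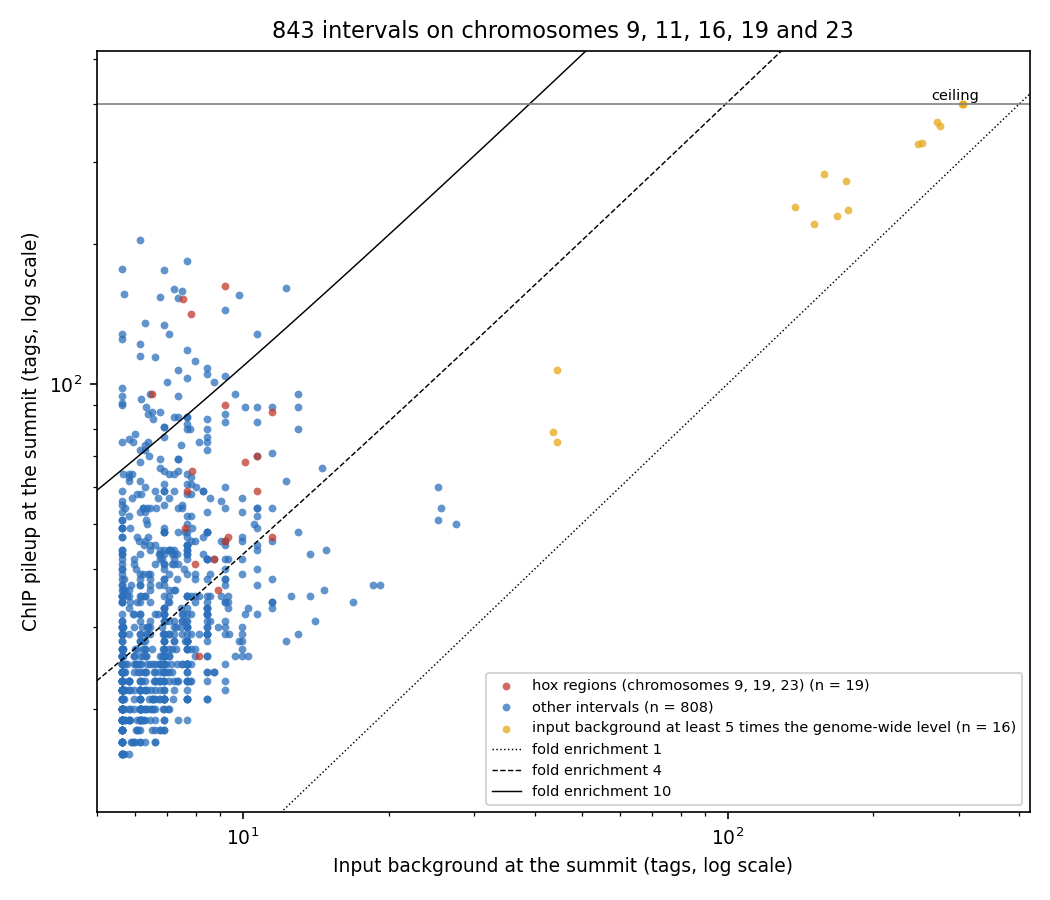
ChIP pileup at the summit (vertical axis, tags, log scale) against recovered input background (horizontal axis, tags, log scale) for the 843 intervals, with lines at a fold enrichment of 1, 4 and 10 and a grey line at the 400-tag ceiling. The 19 hox intervals lie among the low-background intervals, and the 16 intervals with a background of at least 28.2 tags lie between fold 1 and 4.

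In all, 16 of the 843 intervals (1.90%) had an input background of 28.2 tags or more, which is 5 times the level over the genome, against 110 of 3349 (3.28%) on the 18 chromosomes. Their folds ran from 1.30 to 2.38. Chromosomes 16 and 11 held 7 and 6 of the 16, and chromosome 23 none. With these left out, intervals that had a neighbour within 10 kb had a median of 4.67-fold [4.21 to 5.72] (n = 140), and those that had none 3.71-fold [3.58 to 3.81] (n = 687). Of those with neighbours 77.9% [70.3 to 83.9] had a −log10 q above 5, and of those without, 57.2% [53.5 to 60.9].

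As a whole, the 5 chromosomes were close to the 18 without a hox cluster. A −log10 q-value above 5 was reached by 506 of 843 intervals (60.02% [56.7 to 63.3]) on the 5 and by 2027 of 3349 (60.5% [58.9 to 62.2]) on the 18. Over the whole list the share was 59.6%. The difference, 5 minus 18, was −0.50 percentage points with a half-width of 3.70. Intervals of at least 10-fold made up 6.88% [5.36 to 8.79] of the intervals on the 5 and 6.45% [5.67 to 7.33] on the 18, and the median fold was 3.76 [3.66 to 3.90] on the 5 and 3.74 [3.66 to 3.81] on the 18. The ranges of the 5 and of the 18 overlapped in all 3 measures.

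Density and spacing were close as well. The 5 chromosomes had 3.26 intervals per Mb [3.05 to 3.49] between their first and last intervals, and the 18 had 3.43 [3.31 to 3.55]. On the 5, 150 of 843 intervals had a neighbour within 10 kb (17.8% [15.4 to 20.5]), and on the 18, 648 of 3349 (19.3% [18.05 to 20.7]). Both differences, −0.17 intervals per Mb with a half-width of 0.25 and −1.56 percentage points with a half-width of 2.91, were within counting error. They rested in part on chromosome 11, the densest of the 5. Without it the differences were −0.35 per Mb (half-width 0.26) and −3.29 points (half-width 3.12). These half-widths take intervals as independent draws, although intervals with a neighbour come together. Single chromosomes of the 18 ran from 2.58 to 4.41 per Mb and from 7.73% to 29.1% with a neighbour. No difference is therefore read from leaving chromosome 11 out. With chromosome 11 kept, but the 16 high-background intervals and the 110 on the 18 chromosomes left out, the differences were −0.12 per Mb and −0.48 points.

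**Figure D5:**
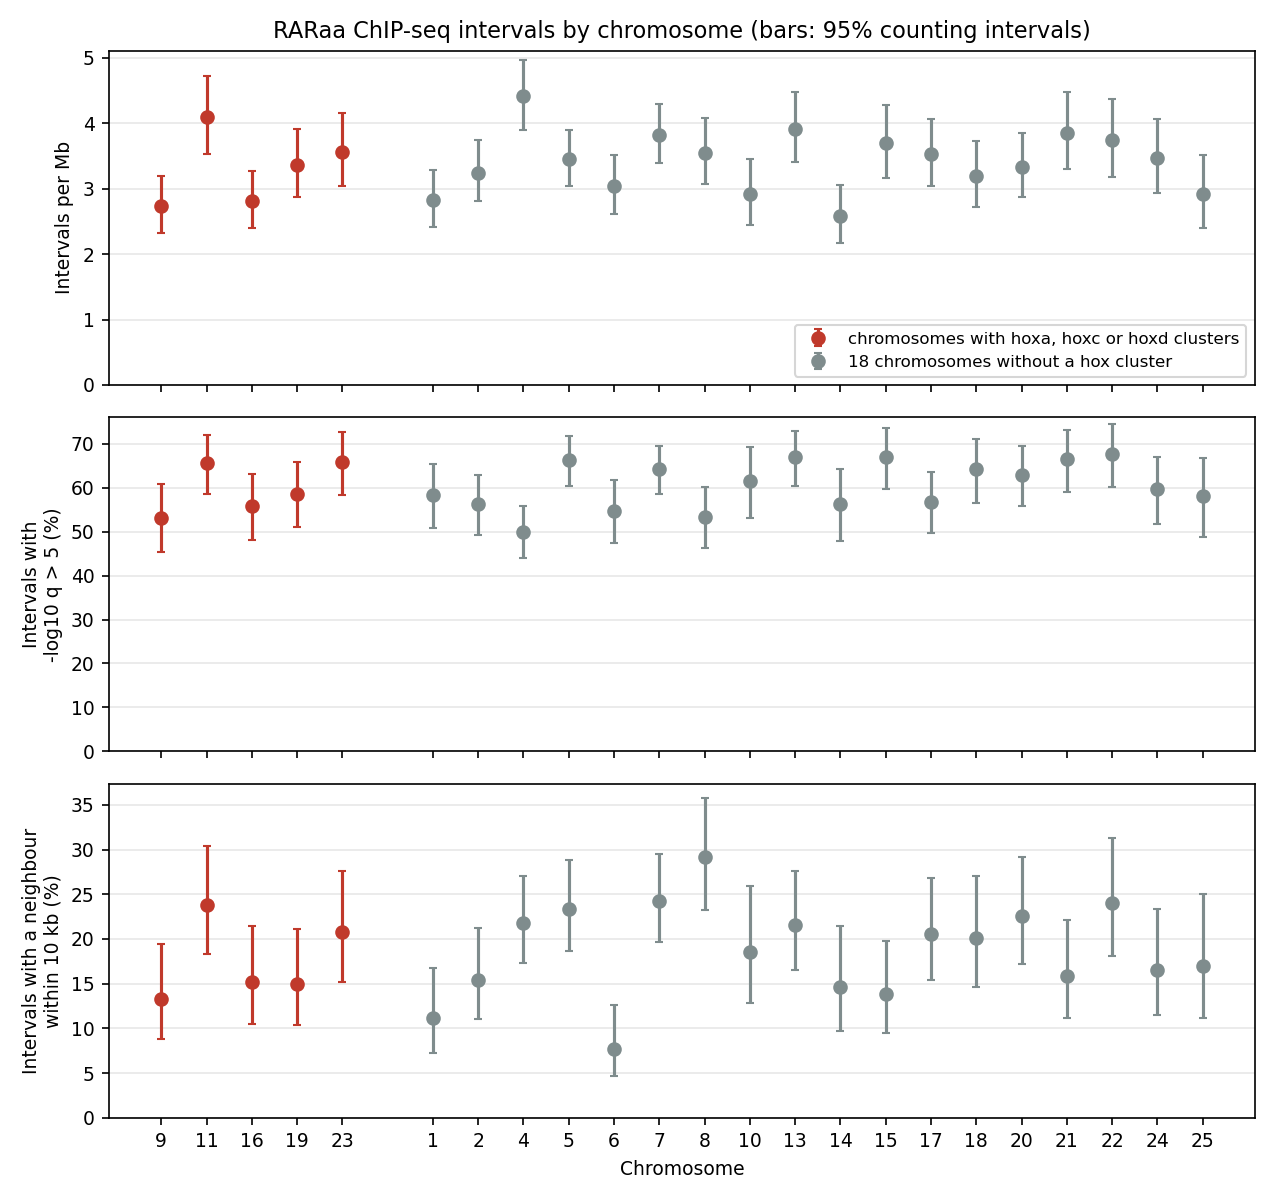
Intervals per Mb, percentage of intervals with −log10 q above 5 and percentage with a neighbour within 10 kb (vertical axes) on the 5 hox chromosomes (red) and the 18 without a hox cluster (grey), with 95% counting intervals. The 5 lie within the span of the 18 in all 3 panels, with chromosomes 11 and 23 above 9, 16 and 19.

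Taken singly, the 5 chromosomes differed in density. Chromosome 11 had 189 intervals at 4.09 per Mb [3.53 to 4.72], the second highest density of the 25 numbered chromosomes, and chromosome 9 had 158 at 2.73 per Mb [2.32 to 3.19], the second lowest. Chromosome 16 had 2.81 per Mb [2.40 to 3.27], 19 had 3.36 [2.87 to 3.91] and 23 had 3.56 [3.04 to 4.15]. The ranges of chromosome 11 and of chromosomes 9 and 16 did not overlap, while those of 19 and 23 overlapped with each of the others. On the 18 chromosomes the density ran from 2.58 on chromosome 14 to 4.41 on chromosome 4, so the 5 lay within that span.

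The hoxc chromosomes, 11 and 23, had the highest shares of strong intervals among the 5. A −log10 q above 5 was reached by 65.6% [58.6 to 72.0] of the intervals on 11 and by 65.9% [58.3 to 72.7] on 23, but by 58.7% [51.1 to 65.9] on 19, 55.8% [48.1 to 63.1] on 16 and 53.2% [45.4 to 60.8] on 9. Every pair among these 5 ranges overlapped. Intervals of at least 10-fold numbered 20 on chromosome 11 (10.6%) and 15 on 23 (9.15%). There were 10 on 19 (5.99%), 7 on 16 (4.24%) and 6 on 9 (3.80%). The 95% ranges of these shares overlapped for every pair. The share was 6.76% over the whole list and ran from 4.02% to 12.4% on the 18 chromosomes. Pooled, the 2 hoxc chromosomes had 232 strong intervals of 353 (65.7% [60.6 to 70.5]) and the other 3 had 274 of 490 (55.9% [51.5 to 60.3]). This pooling was chosen after the values were seen and was not tested. The 18 chromosomes spanned 49.8% on chromosome 4 to 67.7% on chromosome 22. The median fold ran only from 3.50 [3.35 to 3.92] on chromosome 16 to 3.87 [3.67 to 4.22] on chromosome 11.

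In spacing, chromosomes 11 and 23 again came first, and the order of the other 3 changed with the measure. Intervals with a neighbour within 10 kb made up 23.8% [18.3 to 30.4] on chromosome 11 and 20.7% [15.2 to 27.6] on 23, and 15.2% on 16, 15.0% on 19 and 13.3% [8.86 to 19.5] on 9. These ranges overlapped. The median gap between successive intervals was 105 kb on chromosome 11, 127 kb on 23, 163 kb on 19, 193 kb on 9 and 247 kb on 16. Within either pair of paralogous chromosomes, 11 with 23 and 16 with 19, the ranges overlapped for density, strong share and neighbours. The ranges of 19 and 23, which are not paralogous, overlapped in the same measures. No likeness particular to paralogous chromosomes is therefore read from these values.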

How the data were processed

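ChIP-seq of myc-tagged RARaa and its input were analysed from 1 deposited peak list. Per the study's methods and the file headers, the authors aligned reads to Zv9 (bowtie2) and ran MACS2 2.1.1.20160309 for peaks (q-value threshold 0.05, effective genome size 1400000000, summit calling). Tags of 41 bp were extended to 200 bp, 1 tag was kept per position, and the input was scaled by 0.767. The deposited pileup is a signal in tags, the deposited fold enrichment a ratio over local input background, and the deposited scores are −log10 p-values and −log10 q-values.

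Lines with the same borders were merged into intervals, with the values of the line of highest fold and the highest −log10 q. The background was recovered as (pileup + 1)/fold − 1, and Poisson p-values recomputed from it differed from the deposited ones by at most 0.00427% over 4858 lines. Intervals with −log10 q above 5 were called strong. Distances between neighbours were taken between centres, and densities over the span from first to last interval. Exact Poisson intervals were used for pileups and densities, Wilson intervals for shares and binomial rank intervals for medians, at 95%. They cover counting error only: tags carry no molecular identifiers, the background is taken as fixed, and if both mates of a pair were counted they are too narrow. The code (Python, pandas, scipy, statsmodels) was tested on simulated data.

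Named were all intervals at hox genes or mir-10b and between them, the 3 with the highest fold on each chromosome, clusters of at least 4 intervals and intervals annotated to listed genes. Others are named as neighbours of these and were chosen after their values were seen. The chromosomes, gene lists and thresholds were chosen with earlier results of these data known. Gene names come from the study's own annotation, matched by interval borders. Gene order comes from RefSeq (GRCz12tu), whose coordinates were not used. No sequence is given, as no Zv9 genome was used here. The interval of 1 signalling gene is counted but not reported by name here.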

Additional observations from a re-analysis of the deposited data

How the results depend on the processing

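Of 51 alternative values computed for the 7 main results, 48 stayed within the counting range of the main value or, for the number of intervals, within 1.5 times of it. The number of intervals on the 5 chromosomes, 843, fell to 506 with −log10 q above 5 and to 380 with a fold enrichment of at least 4, since both filters remove intervals. The difference in median fold, 5 minus 18 chromosomes, was 0.03 (half-width 0.14) over all intervals and 0.27 (half-width 0.29) over those with −log10 q above 5; the cause was not tested. Over the other alternatives (peak lines in place of intervals, neighbours within 5 or 50 kb, other strength thresholds, no high-background intervals, each of the 5 chromosomes left out in turn) the difference in density stayed below 0, between −0.35 and −0.01 per Mb, and that in the strong share took either sign, between −2.12 and 1.56 points. With a fold of at least 4 every interval was strong on both sides, so that alternative says nothing about the strong share. No paired analysis was possible because each kind of chromatin had 1 library. With 1 ChIP library, no value carries an error between batches of embryos.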

Other observations

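Intervals on the 5 chromosomes were short. Their median length was 255 bp, against 254 bp on the 18 chromosomes without a hox cluster, and it was 381.5 bp for intervals of at least 10-fold and 250.0 bp for the rest. In 93.1% of the 843 the summit lay within 50 bp of the centre. Only 8 intervals held more than 1 summit, 3 each on chromosomes 9 and 11, 1 each on 16 and 19 and none on 23. The longest of these, on chromosome 9 (54605102 to 54606568, 1467 bp), had 3 summits and a fold of 7.03 at the highest, and the next longest, on chromosome 16 (1366 bp), was one of the high-background intervals at 1.35-fold. None of the 8 was named for a hox gene or lay in the hox regions of chromosomes 9, 19 and 23.

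Along the chromosomes, from the first to the last interval in 5 equal parts, the 843 intervals fell 157, 179, 195, 145 and 167, and the shares on the 18 chromosomes were 18.9%, 20.3%, 22.7%, 19.9% and 18.2%. Chromosome 11 was uneven, with 51 of its 189 intervals, 40 of them strong, in the last part, and 27 in the part before it. Chromosome 9 had 16 of 158 in the fourth part and 45 in the third.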
